A study of Mus musculus with 3 samples.

Results

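Lysosomal genes were followed across 3 immune cell populations of the mouse intestinal epithelium. The set holds 41 genes, taken by symbol, out of 37224 Ensembl gene IDs counted. They encode 14 proteases, the thiol reductase GILT, 2 cystatin inhibitors, 7 membrane proteins, 2 acid phosphatases, 7 glycosidases, 5 lipid hydrolases or their activators, progranulin and 2 transcription factors. Every symbol matched 1 ID, and the rule for the set uses no measured value.

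All cells came from RAG-2 null mice, which cannot assemble antigen receptor genes and therefore lack T and B cells, so the genotype is shared by every group and no wild type is present. The iCD8a library was made from sorted CD45+CD8alpha+ cells. The ILC1 library was made from NKp46+NK1.1+ cells, a gate for group 1 innate lymphoid cells. The CD11b+ library was made from myeloid cells sorted as CD45+CD8alpha-CD11b+. The age of the mice and any pooling of animals were not given in the sources used here. There was 1 library per population, so no difference below has a replicate check and no p-value was computed.

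Counts on genes totalled 21678113 in iCD8a, 22181660 in ILC1 and 30511296 in CD11b+. Rag2 had 0 counts throughout, so that its level was at most 0.106 to 0.136 counts per 1e6 (CPM), and mature immune cells carry little of it in any genotype. The defining transcripts of each gate were present: Cd8a stood at 2636 CPM in iCD8a, Ncr1 at 396 in ILC1 and Itgam at 845 in CD11b+. Klrb1c, the gene of NK1.1, was at 546 CPM in ILC1, 207 in iCD8a and 14.7 in CD11b+. Itgam was also read in iCD8a (362 CPM) and ILC1 (187 CPM). Levels are CPM scaled by TMM factors, which correct library sizes for composition. A range in parentheses after a fold is the 95% exact interval from counting alone, with no share for variation among animals.

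Lysosomes are acidic compartments in which proteases, glycosidases and lipases break down material that the cell has engulfed or recycled. Macrophages and dendritic cells use them to digest prey and to cut antigens for MHC class II molecules. Cytotoxic lymphocytes keep a modified lysosome, the lytic granule, in which granzymes are activated and stored. The transcription factors TFEB and TFE3 bind a short E-box element near many lysosomal genes.

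The CD11b+ library carried most of this set at the highest level. The 41 genes summed to 23663 CPM in CD11b+, 7636 CPM in iCD8a and 5376 CPM in ILC1. As a share of all gene counts the sums were 2.19% (2.18 to 2.19), 0.832% (0.829 to 0.836) and 0.533% (0.530 to 0.536). Of the 41 genes, 34 were highest in CD11b+, 5 in iCD8a and 2 in ILC1, while 27 were lowest in ILC1. In bulk libraries, more cells of a type and more RNA per cell cannot be told apart.

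The commonest order was CD11b+, then iCD8a, then ILC1. It held for 26 of the 41 genes, and for 23 of them the intervals between neighbours excluded 1. Among 11063 genes that reached 5 CPM somewhere, 19.8% followed that order and 11.8% did so with both intervals excluding 1. Without TMM factors the order held for 24 of the 41 genes, and 30 were highest in CD11b+. In the plot of levels by library, the spread is narrowest for Laptm5 and widest for Ifi30.

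**Figure D1:**
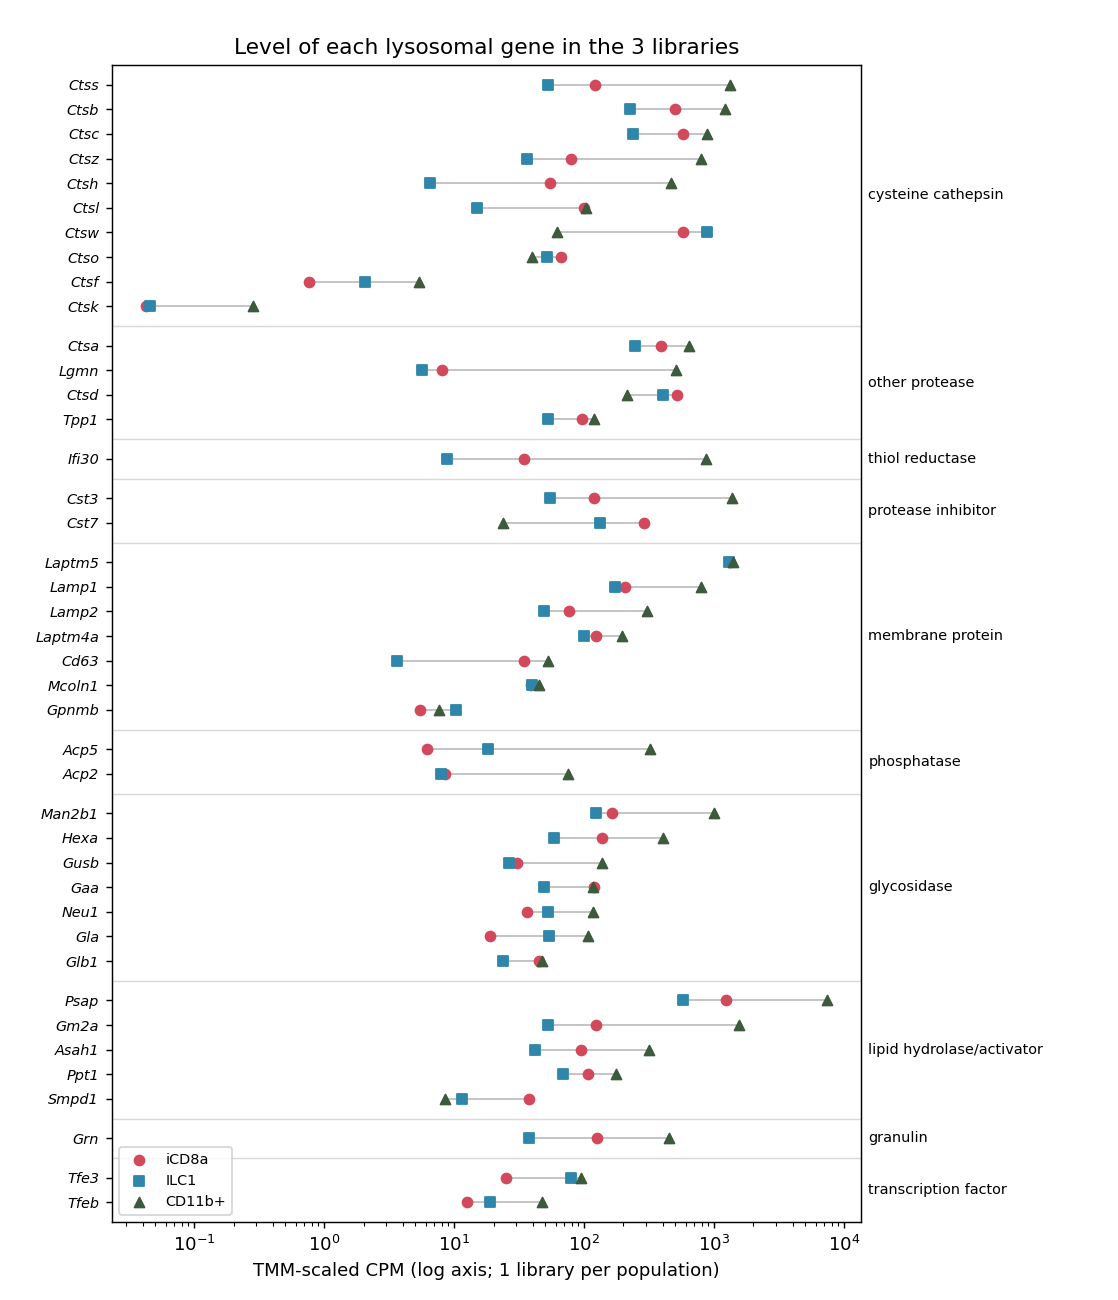
Level of each of the 41 lysosomal genes in TMM-scaled CPM (log axis), grouped by role. Circles are iCD8a, squares ILC1 and triangles CD11b+, with 1 library each and no error bar; the CD11b+ triangle lies farthest right for 34 genes, and farthest left for 5, Ctsw, Cst7, Ctsd, Ctso and Smpd1.

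The 4-fold rule asked for a fold of 4 or more, an interval whose near end was 2 or more, and 5 CPM or more in the higher library. Against iCD8a, 15 lysosomal genes were higher in CD11b+, where 13.4% of all genes were, and 3 were higher in iCD8a, where 6.13% of all genes were. Against ILC1, 20 were higher in CD11b+ (background 13%) and 2 in ILC1 (background 6.01%). Between iCD8a and ILC1, 3 were higher in iCD8a (background 3.52%) and 0 in ILC1 (background 4.89%). At least 5 CPM in 1 library of the pair was reached by 40, 40 and 39 of the 41 genes in those comparisons, so the shares higher in CD11b+ were 37.5% and 50% of the genes that could pass. The CD11b+ excess exceeded the background share in both comparisons, and the few genes higher in iCD8a or ILC1 than in CD11b+ lay near it.

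A looser rule, with a fold of at least 2 and a near bound above 1.5, added many smaller differences. It placed 23 genes higher in CD11b+ than in iCD8a (background 20.6%) and 4 lower (background 16.7%). Against ILC1 it placed 29 higher in CD11b+ (background 20.9%) and 2 lower (background 17%). Between iCD8a and ILC1 it placed 17 higher in iCD8a, 43.6% of the 39 that could pass against a background of 9.49%, and 3 higher in ILC1 against 10.8%. The iCD8a excess over ILC1 was therefore broad but shallow, since 14 of those 17 genes stayed under 4-fold.

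Medians gave the same picture. Medians were taken over the 40 lysosomal genes that reached 1 CPM somewhere. For iCD8a over CD11b+ the log2 ratio had a median of −1.71 (quartiles −2.67 and −0.29), where that of 13649 genes was 0.04. For ILC1 over CD11b+ it was −2.05 (−3.60 and −0.99), where all genes had a median of 0.00. For iCD8a over ILC1 it was 0.65 (0.08 and 1.20), against 0.04. The comparisons share libraries, so they are 3 views of 3 measurements.

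**Figure D2:**
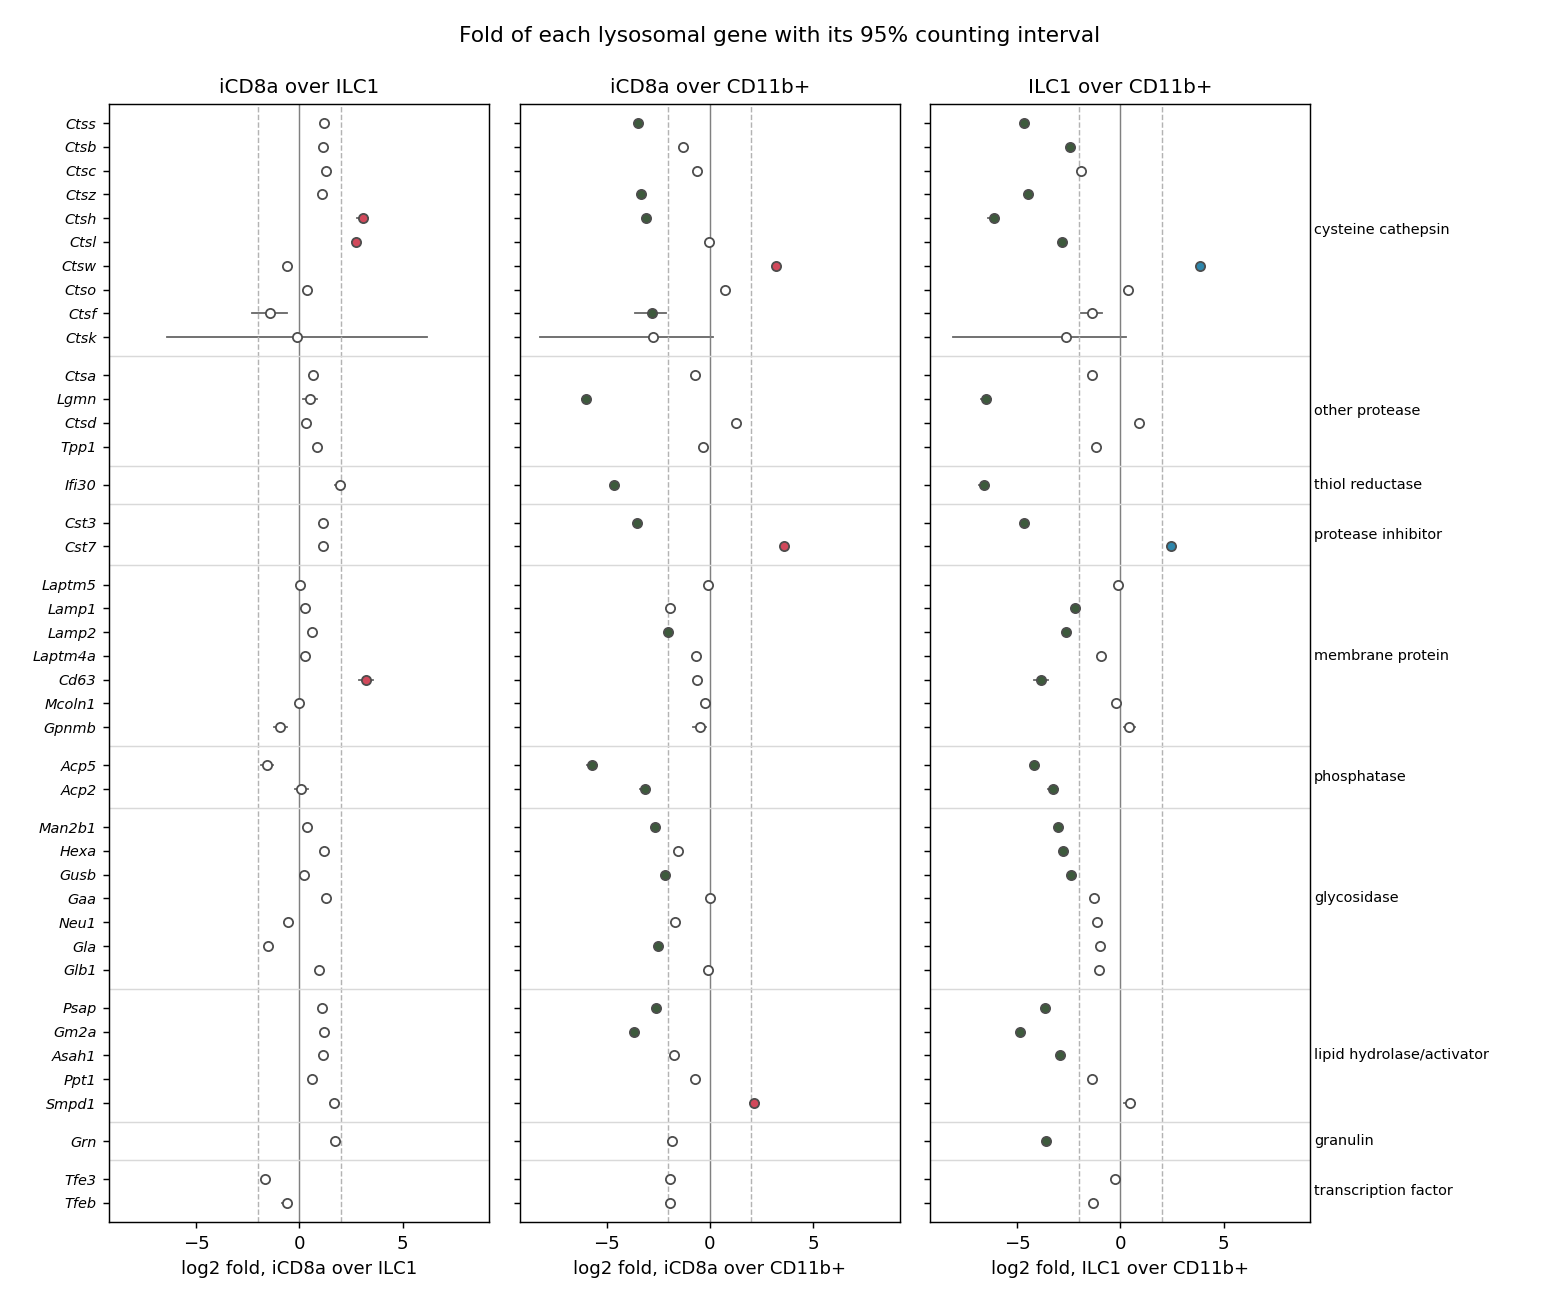
Log2 fold of each lysosomal gene in the 3 comparisons, with bars for the 95% counting interval and dashed lines at 4-fold. Filled points passed the 4-fold rule and take the colour of the higher library; 15 and 20 points lie filled on the CD11b+ side of the middle and right panels, and 3 points are filled in the left panel.

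Counted against both other libraries at once, 13 genes were higher in CD11b+ (background 10.2%), 0 in iCD8a (background 1.52%) and 0 in ILC1 (background 1.68%). The 13 were Ctss, Ctsz, Ctsh, Lgmn, Ifi30, Cst3, Lamp2, Acp2, Acp5, Man2b1, Gusb, Psap and Gm2a. Lower than in both others were 2 genes in CD11b+ (Ctsw and Cst7, background 2.65%), 3 in ILC1 (Ctsh, Ctsl and Cd63, background 1.4%) and 0 in iCD8a (background 2.21%).

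Cysteine cathepsins are papain-like proteases that do much of the protein cutting in lysosomes, and their make-up differed between the libraries. Ctss, the cathepsin that trims the invariant chain of MHC class II, stood at 1327 CPM in CD11b+, 120.0 in iCD8a and 52.4 in ILC1. It was 11.1-fold higher in CD11b+ than in iCD8a (10.6 to 11.5) and 25.3-fold higher than in ILC1 (23.9 to 26.9). Ctsz, a carboxypeptidase, was at 794 CPM in CD11b+, 78.8 in iCD8a and 36.3 in ILC1, folds of 10.1 (9.61 to 10.6) and 21.9 (20.4 to 23.5). Both genes therefore separated the myeloid library from both others by more than the 4-fold rule asks.

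Ctsh, an aminopeptidase, had a graded pattern. Its level was 460.3 CPM in CD11b+, 54.8 in iCD8a and 6.54 in ILC1, so that neighbouring libraries were 8.4-fold (7.93 to 8.90) and 8.37-fold (7.05 to 10) apart. The ends of that range differed 70.3-fold (59.7 to 83.5). Ctsl, an endopeptidase found in most tissues, did not separate iCD8a (99.3 CPM) from CD11b+ (104 CPM), and that small difference changes sign without TMM factors. It was low in ILC1, at 14.9 CPM, which was 6.68-fold (5.95 to 7.53) under iCD8a and 6.98-fold (6.22 to 7.85) under CD11b+.

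Ctsb, an abundant cathepsin of most cells, was at 1214 CPM in CD11b+, 501 in iCD8a and 223 in ILC1. It passed the 4-fold rule in CD11b+ against ILC1 (5.45-fold, 5.29 to 5.62) and was 2.42-fold higher than in iCD8a (2.37 to 2.48). Ctsc, the dipeptidyl peptidase that removes the propeptide of granzymes, was at 883 CPM in CD11b+, 576 in iCD8a and 238 in ILC1. None of its 3 pairs reached 4-fold: iCD8a was 2.43-fold over ILC1 (2.35 to 2.51), and CD11b+ was 1.53-fold over iCD8a (1.5 to 1.56) and 3.72-fold over ILC1 (3.61 to 3.83). The granzyme-activating protease was thus abundant in every population.

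Ctsw, a cathepsin known from cytotoxic T cells and natural killer cells, ran the other way. Its level was 884 CPM in ILC1, 577 in iCD8a and 62.0 in CD11b+. It was 14.3-fold higher in ILC1 than in CD11b+ (13.6 to 15.0) and 9.3-fold higher in iCD8a than in CD11b+ (8.85 to 9.78), while ILC1 exceeded iCD8a 1.53-fold (1.5 to 1.57). Markers of lymphocytes and natural killer cells were read in the CD11b+ library, 14 of 14. They summed to 3921 CPM there, against 50768 in iCD8a and 8504 in ILC1. The granzyme genes Gzma (2043 CPM) and Gzmb (1198) made up most of the CD11b+ sum. They also made up most of the iCD8a sum, at 25743 and 14623 CPM. The other markers reached at most 264 CPM in CD11b+ (Il2rb). Eomes, Cd3e, Cd2 and Ncr1 were lowest there, none above 2.23 CPM (Ncr1). The part of lymphocytes and natural killer cells in the 62.0 CPM of Ctsw was not tested.

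Of the remaining cysteine cathepsins, Ctso differed little, with 39.4 CPM in CD11b+, 51.7 in ILC1 and 66.1 in iCD8a. Ctsf was scarce, with 5.35 CPM in CD11b+, 2.04 in ILC1 and 0.762 in iCD8a. Its 7.03-fold difference between CD11b+ and iCD8a (4.30 to 12.2) rests on 18 counts in iCD8a and does not pass without TMM factors. Ctsk, the collagen-degrading cathepsin of osteoclasts, had 1, 1 and 8 counts in iCD8a, ILC1 and CD11b+. Its 6.7-fold ratio of CD11b+ to iCD8a has an interval of 0.898 to 297, so no difference was detectable at this depth.

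Levels of different genes were compared per kilobase of exon, because longer transcripts yield more reads. On that scale Ctsw made up 75% of the summed cysteine cathepsin level in ILC1, 45.5% in iCD8a and 1.61% in CD11b+. Ctss made up 47.9% in CD11b+, 13.2% in iCD8a and 6.19% in ILC1, and Ctsz made up 27% in CD11b+, 8.15% in iCD8a and 4.04% in ILC1. The iCD8a library was the more even, with Ctsc at 14.8%, Ctss at 13.2% and Ctsb at 12.3% beside Ctsw. The ratio of Ctsw to Ctss per kilobase, which no scaling of libraries can alter, was 12.1 (11.4 to 12.9) in ILC1, 3.46 (3.32 to 3.60) in iCD8a and 0.0336 (0.0320 to 0.0353) in CD11b+.

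**Figure D3:**
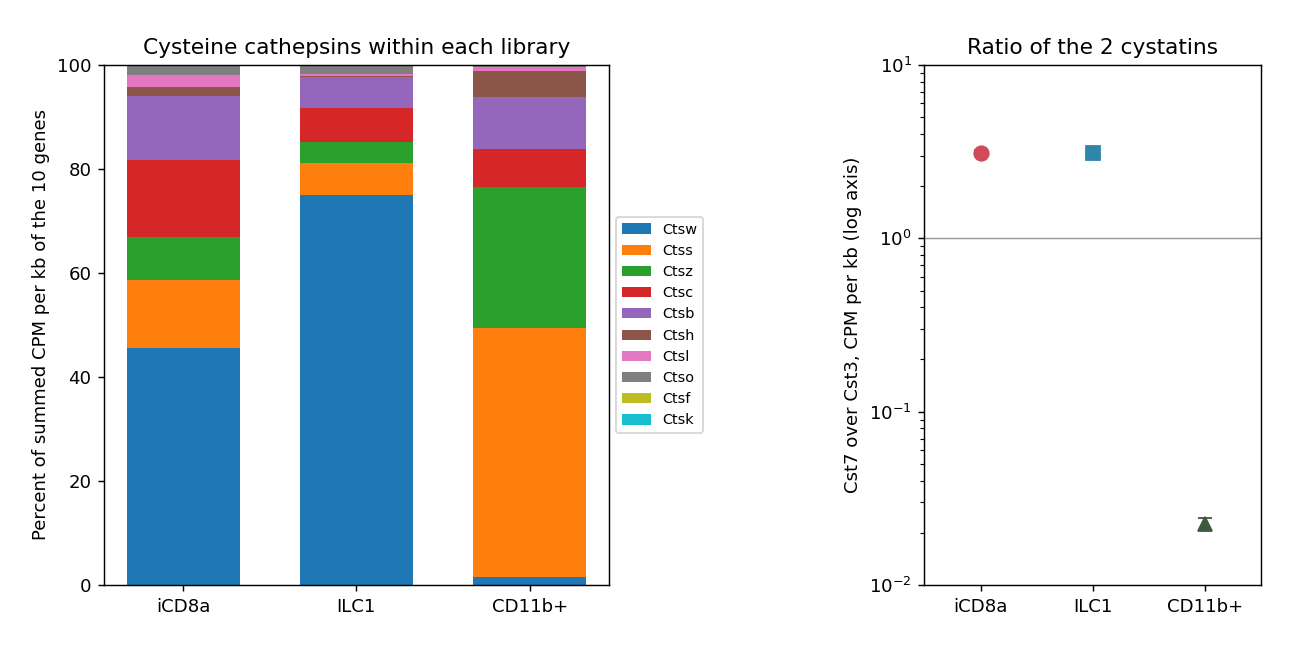
Left, share of each of the 10 cysteine cathepsins in their summed CPM per kilobase of exon, by library; Ctsw fills 75% of the ILC1 bar and 1.61% of the CD11b+ bar. Right, the ratio of Cst7 to Cst3 per kilobase (log axis) with its 95% counting interval, at 3.11 in iCD8a, 3.10 in ILC1 and 0.0224 in CD11b+.

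Proteases of other families split as well. Lgmn, the asparaginyl endopeptidase legumain, which helps to process antigens and other lysosomal proteases, was at 509 CPM in CD11b+, 8.04 in iCD8a and 5.63 in ILC1. It was 63.3-fold higher in CD11b+ than in iCD8a (54.9 to 73.4) and 90.3-fold higher than in ILC1 (75.7 to 109). Ctsd, the major aspartic protease of lysosomes, was highest in iCD8a, at 514 CPM, followed by ILC1 at 405 and CD11b+ at 214. The 2.4-fold excess of iCD8a over CD11b+ (2.33 to 2.48) passed the 2-fold rule and not the 4-fold rule.

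Ctsa, a serine carboxypeptidase that also protects neuraminidase and beta-galactosidase, was at 639 CPM in CD11b+, 392 in iCD8a and 247 in ILC1. Tpp1, a tripeptidyl peptidase, was at 119.6 CPM in CD11b+, 95.7 in iCD8a and 52.7 in ILC1. Neither was 4-fold apart in any pair. The ratio of Ctsd to Ctsb per kilobase was 4.68 in ILC1 (4.52 to 4.85), 2.64 in iCD8a (2.58 to 2.71) and 0.454 in CD11b+ (0.441 to 0.466). The aspartic protease was therefore read above cathepsin B in iCD8a and ILC1 and below it in CD11b+.

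Ifi30, which encodes the thiol reductase GILT that opens disulfide bonds in antigens, had the widest range of the set. It stood at 856 CPM in CD11b+, 34.4 in iCD8a and 8.77 in ILC1. CD11b+ exceeded iCD8a 24.8-fold (23.2 to 26.7) and ILC1 97.6-fold (84.7 to 113). The difference between iCD8a and ILC1 was 3.93-fold (3.35 to 4.62), just under the rule, and passes it without TMM factors.

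The 2 cystatins, inhibitors of cysteine cathepsins, had opposite patterns. Cst3, the secreted inhibitor cystatin C, was at 1355 CPM in CD11b+, 119 in iCD8a and 54.1 in ILC1. It was 11.4-fold higher in CD11b+ than in iCD8a (11 to 11.9) and 25-fold higher than in ILC1 (23.6 to 26.6). Cst7, which encodes cystatin F, an inhibitor that reaches lysosomes and acts on Ctsc, had 23.7 CPM in CD11b+, 131 in ILC1 and 288 in iCD8a. It was 12.1-fold higher in iCD8a than in CD11b+ (11.2 to 13.2) and 5.53-fold higher in ILC1 than in CD11b+ (5.08 to 6.02).

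Per kilobase, the ratio of Cst7 to Cst3 was 3.11 (2.98 to 3.25) in iCD8a and 3.10 (2.90 to 3.32) in ILC1. In CD11b+ the ratio was 0.0224 (0.0208 to 0.0242). The ratio of Cst7 to Ctsc per kilobase was 2.94 (2.85 to 3.02) in iCD8a, 3.24 (3.10 to 3.40) in ILC1 and 0.158 (0.146 to 0.171) in CD11b+. Although both cystatins were about 2.2-fold higher in iCD8a than in ILC1, the ratio between them differed by less than the counting error in those libraries.

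Of the 7 membrane proteins, 1 was higher in CD11b+ than in iCD8a (background 13.4%), 3 were higher in CD11b+ than in ILC1 (background 13%), and 1 was higher in iCD8a than in ILC1 (background 3.52%). Lamp1 and Lamp2, heavily glycosylated proteins that line the lysosomal membrane, were highest in CD11b+. Lamp1 was at 789.6 CPM in CD11b+, 207 in iCD8a and 171 in ILC1. Lamp2 was at 304 CPM in CD11b+, 75.7 in iCD8a and 49.3 in ILC1. Against iCD8a the 2 genes sat on either side of the rule, at 3.82-fold for Lamp1 (3.70 to 3.94) and 4.01-fold for Lamp2 (3.81 to 4.23), and Lamp2 drops below it under 5 of 6 other ways of scaling or trimming the libraries. Both passed against ILC1, at 4.61-fold (4.45 to 4.77) and 6.16-fold (5.78 to 6.57).

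Cd63, a tetraspanin of late endosomes and granules, was low in ILC1. It stood at 52.3 CPM in CD11b+, 34.1 in iCD8a and 3.64 in ILC1. The iCD8a level was 9.37-fold over ILC1 (7.44 to 11.9), the largest excess of iCD8a over ILC1 in the set. CD11b+ and iCD8a differed 1.54-fold (1.41 to 1.68).

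Laptm5, a transmembrane protein of lysosomes in blood cells that lowers antigen receptor levels, was nearly level at 1384 CPM in CD11b+, 1319 in iCD8a and 1289 in ILC1. Its highest and lowest libraries differed 1.07-fold, and the order of iCD8a against either other library depends on the scaling. It was the most abundant member by counts in iCD8a and in ILC1, with 17.3% and 24.0% of the set's counts. Mcoln1, a calcium channel of the lysosomal membrane, was also flat, at 45.1 CPM in CD11b+, 39.2 in ILC1 and 38.8 in iCD8a, and its order also depends on the scaling. Laptm4a, a relative of Laptm5, ranged from 100.2 CPM in ILC1 to 122 in iCD8a and 194 in CD11b+.

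Gpnmb, a glycoprotein of lipid-loaded macrophages and osteoclasts, was scarce everywhere. Its level was 10.3 CPM in ILC1, 7.66 in CD11b+ and 5.46 in iCD8a. It was 1 of 7 genes in the set that were not highest in CD11b+, with Ctsw, Ctsd, Ctso, Cst7, Smpd1 and Gaa.

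Both acid phosphatases were higher in CD11b+ than in the other libraries. Acp5, the tartrate-resistant phosphatase of osteoclasts and some macrophages, was at 322 CPM in CD11b+, 18.0 in ILC1 and 6.14 in iCD8a. It was 52.4-fold higher than in iCD8a (44.5 to 62.2) and 17.8-fold higher than in ILC1 (16.1 to 19.8), and ILC1 exceeded iCD8a 2.94-fold (2.42 to 3.58). Acp2, a phosphatase of the lysosomal membrane and lumen, was at 74.9 CPM in CD11b+, 8.42 in iCD8a and 7.86 in ILC1. The interval of the ratio of iCD8a to ILC1 ran from 0.869 to 1.32.

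Glycosidases, which remove sugars from glycoproteins and glycolipids, split into a strong and a weak group. Man2b1, the lysosomal alpha-mannosidase, was at 1002.5 CPM in CD11b+, 162 in iCD8a and 123 in ILC1, with CD11b+ over iCD8a by 6.19-fold (5.98 to 6.40) and over ILC1 by 8.13-fold (7.82 to 8.46). Gusb, the beta-glucuronidase, was at 137 CPM in CD11b+, 30.6 in iCD8a and 26.4 in ILC1. Its 4.5-fold difference between CD11b+ and iCD8a (4.15 to 4.88) does not pass without TMM factors. Hexa, the alpha chain of beta-hexosaminidase, was at 399 CPM in CD11b+, 136 in iCD8a and 58.7 in ILC1, which passed the rule against ILC1 alone (6.8-fold, 6.42 to 7.21).

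Gla, the alpha-galactosidase that clears globotriaosylceramide, was at 106 CPM in CD11b+, 53.0 in ILC1 and 18.7 in iCD8a. It passed in CD11b+ against iCD8a (5.66-fold, 5.12 to 6.27) and was 2.83-fold higher in ILC1 than in iCD8a (2.54 to 3.17). Neu1, the lysosomal neuraminidase, was at 116 CPM in CD11b+, 52.6 in ILC1 and 36.5 in iCD8a, with no pair 4-fold apart. Both genes had iCD8a, not ILC1, as their lowest library.

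Gaa and Glb1 belonged to the weak group. Gaa, the acid alpha-glucosidase that degrades glycogen, was at 119 CPM in iCD8a, 117.5 in CD11b+ and 49.0 in ILC1. Glb1, the beta-galactosidase, was at 47.5 CPM in CD11b+, 45.1 in iCD8a and 23.5 in ILC1. For both genes the interval between iCD8a and CD11b+ included 1, from 0.964 to 1.07 for Gaa and from 0.970 to 1.14 for Glb1, and the sign of that difference depends on the scaling for each, and ILC1 was the lowest library.

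Genes of sphingolipid breakdown held the member with the most counts in CD11b+. Psap, the precursor of the saposins that present lipids to their hydrolases, was at 7330.3 CPM in CD11b+, 1223 in iCD8a and 578.5 in ILC1. It was 6-fold higher in CD11b+ than in iCD8a (5.92 to 6.07) and 12.7-fold higher than in ILC1 (12.4 to 12.9). It alone made up 31.0% of the counts of the 41 genes in CD11b+, 16% in iCD8a and 10.8% in ILC1. Per kilobase, 16 genes of 12574 with at least 1 CPM in CD11b+ stood above it.

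Gm2a, the activator that lifts GM2 ganglioside to hexosaminidase, was at 1538 CPM in CD11b+, 122 in iCD8a and 52.3 in ILC1. The folds were 12.6 (12.1 to 13.1) and 29.4 (27.7 to 31.2). Hexa, whose product works with this activator, stood above Gm2a per kilobase in iCD8a (2.31, 2.20 to 2.43) and ILC1 (2.32, 2.14 to 2.51) and below it in CD11b+ (0.537, 0.526 to 0.548). The balance of enzyme chain to activator was thus reversed in the myeloid library.

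Asah1, the acid ceramidase, was at 317 CPM in CD11b+, 94.4 in iCD8a and 42.1 in ILC1, and passed the rule against ILC1 (7.53-fold, 7.03 to 8.06). Ppt1, which removes palmitate from proteins, was at 176 CPM in CD11b+, 107 in iCD8a and 69.1 in ILC1 and passed in no pair. Smpd1, the acid sphingomyelinase, was instead highest in iCD8a and lowest in CD11b+. Its level was 8.4 CPM in CD11b+, 11.5 in ILC1 and 37.3 in iCD8a. The iCD8a level was 4.44-fold over CD11b+ (3.85 to 5.15) and 3.23-fold over ILC1 (2.81 to 3.73), so Smpd1 was the 1 lipid hydrolase highest in iCD8a.

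Grn, which encodes progranulin, a secreted protein that is cut to granulins in lysosomes, was at 448 CPM in CD11b+, 126 in iCD8a and 37.4 in ILC1. It was 12-fold higher in CD11b+ than in ILC1 (11.2 to 12.9) and 3.55-fold higher than in iCD8a (3.41 to 3.70). The iCD8a level was 3.37-fold over ILC1 (3.12 to 3.65). Its order matched that of Psap, whose product binds progranulin, but it was the order of 26 of the 41 genes.

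The transcription factors that act on lysosomal genes were modest and did not follow the commonest order. Tfeb was at 47.4 CPM in CD11b+, 18.9 in ILC1 and 12.4 in iCD8a. Tfe3 was at 94.3 CPM in CD11b+, 78.4 in ILC1 and 24.9 in iCD8a. Both were lowest in iCD8a, and neither was 4-fold apart in any pair: CD11b+ exceeded iCD8a 3.81-fold for Tfeb (3.36 to 4.34) and 3.79-fold for Tfe3 (3.46 to 4.15). Tfe3 was 3.15-fold higher in ILC1 than in iCD8a (2.87 to 3.47), whereas 17 lysosomal genes passed the 2-fold rule in the opposite direction. Of 14 other genes of this regulatory pathway, 2 were higher in CD11b+ than in either other library and 0 lower by the 4-fold rule. Of all genes, 13.4% were higher in CD11b+ than in iCD8a and 13% than in ILC1. The 2 pathway genes were the relatives Tfec and Mitf. Tfec had 0 counts in iCD8a and ILC1, which allows at most 0.127 and 0.136 CPM, and stood at 6.10 CPM in CD11b+, while Mitf was at 19.7 CPM in CD11b+, 4.74 in iCD8a and 2.86 in ILC1.

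Promoters were searched for the E-box CACGTG, which TFEB and TFE3 recognise, and for a longer form with GT directly before it, on both strands, so that the longer form is a subset of E-box matches. RefSeq promoters of build GRCm38.p6, running from 250 bases before to 50 after the start, were found for 37 of the 41 genes. The promoter table holds no entry used here for Ctsb, Ctsh, Ctsw and Asah1. The E-box was in 11 of the 37 (29.7%), against 8.09% of 27025 genes, and the longer form in 8 (21.6%), against 2.55%. Among the 12 of these genes that were higher in CD11b+ than in both others, 2 held the E-box, and among the other 25 it was 9. A match is a run of letters in a window and not a site shown to be bound.

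The stretches around the E-boxes of the 6 genes that passed the 4-fold rule in some comparison and hold a match are printed because they show the element beside the levels above. Each is written 5′ to 3′ on the strand of its gene, with the E-box and any flanking GT or AC of the longer form in capitals.
Ifi30: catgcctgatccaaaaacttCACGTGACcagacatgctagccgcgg
Lgmn: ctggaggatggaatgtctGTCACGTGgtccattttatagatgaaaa
Gla: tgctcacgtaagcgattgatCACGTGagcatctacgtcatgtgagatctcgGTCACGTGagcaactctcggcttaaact
Lamp1: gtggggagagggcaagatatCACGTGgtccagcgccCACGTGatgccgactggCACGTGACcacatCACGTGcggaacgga
Ctsl: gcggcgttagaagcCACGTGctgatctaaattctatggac
Ctsf: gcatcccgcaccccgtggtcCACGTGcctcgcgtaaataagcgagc

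The Ifi30 stretch lies at chr8:70766834-70766879 on the minus strand, and that of Lgmn at chr12:102439116-102439161 on the minus strand, before the start of 1 of its 2 listed promoters. Gla is at chrX:134601174-134601252 on the minus strand, with 2 E-boxes. Lamp1, at chr8:13159080-13159160 on the plus strand, has 4 E-boxes within the last 61 bases before its start. Ctsl is at chr13:64370731-64370770 on the minus strand and Ctsf at chr19:4855066-4855111 on the plus strand, with 1 E-box each and not the longer form. The 6 genes did not share a pattern: Ifi30 and Lgmn were higher in CD11b+ than in both others, Lamp1 only against ILC1, Gla only against iCD8a, Ctsl was low in ILC1 alone, and Ctsf was scarce in all 3.

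Other lysosomal genes, from 5 lists with 93 further symbols, had smaller median differences than the 41. Of the 93, 12 were higher in CD11b+ than in iCD8a and 2 lower, 18 were higher in CD11b+ than in ILC1 and 2 lower, and 2 were apart in each direction between iCD8a and ILC1. As shares of those with 5 CPM in the pair, 13.3% and 19.8% were higher in CD11b+, where 13.4% and 13% of all genes were. Lower in CD11b+ were 2.22% and 2.2%, where 6.13% and 6.01% of all genes were. Between iCD8a and ILC1 it was 2.25% in each direction, where 3.52% of all genes were higher in iCD8a and 4.89% in ILC1. Their median log2 ratios were −0.58 for iCD8a over CD11b+, −0.76 for ILC1 over CD11b+ and 0.36 for iCD8a over ILC1. The signs of those medians were those of the 41 genes.

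**Figure D4:**
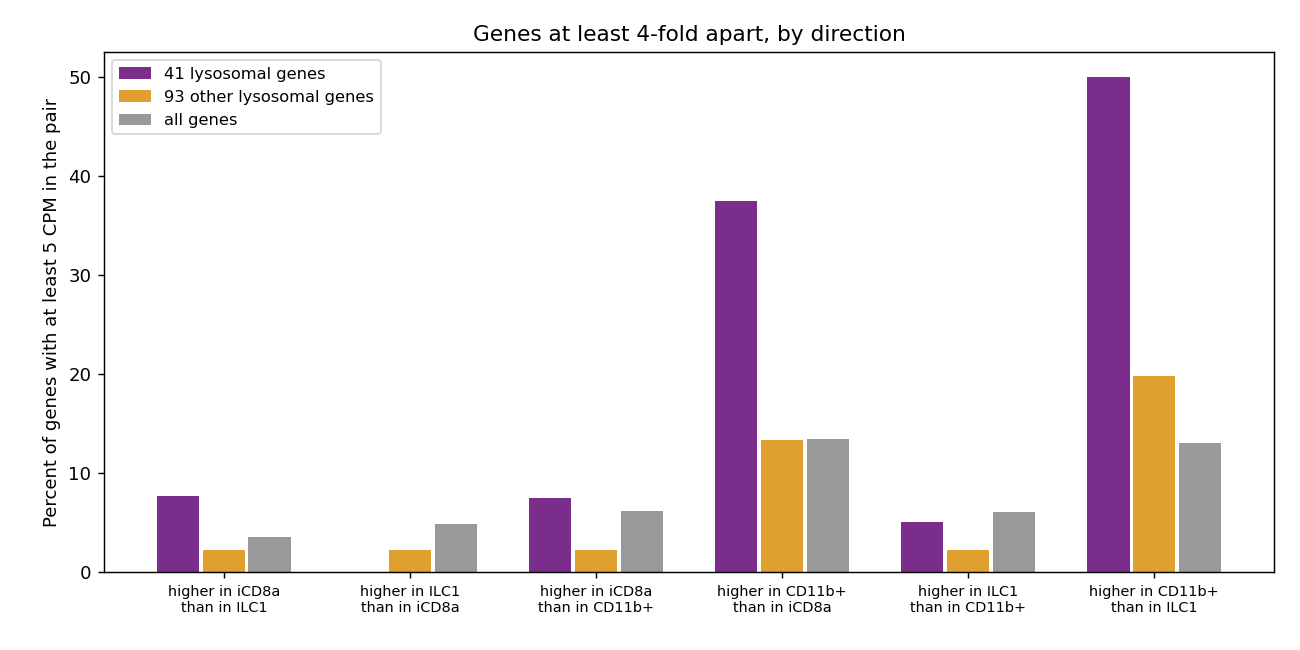
Percent of genes that passed the 4-fold rule in each direction, among those with at least 5 CPM in either library of the pair, for the 41 lysosomal genes, the 93 further lysosomal genes and all genes. The bars for the 41 genes reach 37.5% and 50% for genes higher in CD11b+ than in iCD8a and ILC1, where all genes are at 13.4% and 13%.

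V-ATPase subunits and accessory proteins acidify the lysosome. Of 17, 1 was higher in CD11b+ than in iCD8a (background 13.4%) and 1 lower (background 6.13%), with a median log2 ratio of −0.58 for iCD8a over CD11b+. Atp6v0a1 was at 53.0 CPM in CD11b+, 5.21 in iCD8a and 1.86 in ILC1. Another form of the same subunit, Atp6v0a2, had 256 CPM in iCD8a and 63.4 in CD11b+. Atp6v0d2 had 0 counts in iCD8a and stood at 6.41 CPM in ILC1 and 0.248 in CD11b+.

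Of 26 other hydrolases, 4 were higher in CD11b+ than in iCD8a (background 13.4%) and 8 than in ILC1 (background 13%). Lyz2, a lysozyme that is also a macrophage marker, was at 4844 CPM in CD11b+, 252 in ILC1 and 6.52 in iCD8a, a 743-fold range (635 to 876). Without Lyz2 the other 25 hydrolases summed to 2274 CPM in CD11b+, 1226.5 in iCD8a and 951 in ILC1, a narrower range than that of the 41 genes.

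Of 21 other membrane and transport proteins, 4 were higher in CD11b+ than in iCD8a (background 13.4%) and 5 than in ILC1 (background 13%). Slc15a3, a transporter of histidine and small peptides, was at 554 CPM in CD11b+, 12.3 in iCD8a and 8.91 in ILC1. Slc11a1, a metal transporter of phagosomes, had 243 CPM in CD11b+ against 5.46 in iCD8a, and the macrophage protein Cd68 at 287 CPM in CD11b+ and 7.68 in ILC1. Slc29a3, a nucleoside transporter of lysosomes, was 4.44-fold higher in iCD8a than in ILC1 (3.77 to 5.26). Cd68 and, from the hydrolase list, Lyz2 are also on the macrophage marker list.

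Enzyme sorting genes split between their receptors. Igf2r, the large mannose phosphate receptor that delivers new hydrolases, was at 373 CPM in ILC1, 335 in iCD8a and 34.7 in CD11b+. In CD11b+, the library with the most hydrolase transcript, it was 9.64-fold (9.02 to 10.3) lower than in iCD8a and 10.7-fold (10 to 11.5) lower than in ILC1. The other mannose phosphate receptor gene, M6pr, was instead highest in CD11b+, at 335 CPM, with 237 in iCD8a and 193 in ILC1, and passed the 4-fold rule in no pair. Sort1, a sorting receptor that works without that tag, was at 62.4 CPM in CD11b+, 14.3 in iCD8a and 1.73 in ILC1. Gga2, an adaptor that packs such receptors into vesicles, was 5.04-fold higher in CD11b+ (22.7 CPM) than in ILC1 (4.50 CPM). The 15 genes of this list summed to 1459 CPM in CD11b+, 1569 in iCD8a and 1442 in ILC1, but Igf2r offset the other members in those sums. Of the 15, 11 were lower in iCD8a than in CD11b+ and 10 lower in ILC1 than in CD11b+, with median log2 ratios of −0.39 and −0.47.

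Markers of other cell types are given as measured. The 16 macrophage and monocyte markers summed to 9316 CPM in CD11b+, 935 in ILC1 and 433.5 in iCD8a, with 15 higher in CD11b+ against each other library. All had counts in each library, but 8 were under 1 CPM in iCD8a and 1 in ILC1. Few genes made up most of the smaller sums: Itgam (362 CPM) in iCD8a, and Ccr2 (355), Lyz2 (252) and Itgam (187) in ILC1. The 12 dendritic cell markers summed to 35608 CPM in CD11b+, 2477 in ILC1 and 2036 in iCD8a. Of them, 8 were higher in CD11b+ than in iCD8a and 7 than in ILC1. Clec9a passed the 4-fold rule with iCD8a above CD11b+ (background 6.13%), and Irf8 with ILC1 above CD11b+ (background 6.01%). Most of the CD11b+ sum came from Cd74 (18551 CPM), H2-Ab1 (7529) and H2-Aa (6661.5). Irf8 and Itgax led the other sums, at 1183.5 and 957 CPM in ILC1 and 470 and 722 in iCD8a. The 18 epithelial markers summed to 1784 CPM in CD11b+, 872 in iCD8a and 499 in ILC1, and 15 and 16 were higher in CD11b+ than in iCD8a and ILC1. Cdh1 (359 CPM), Cdh17 (193) and Epcam (154) made up most of the iCD8a sum, and Cdh1 (289) most of the ILC1 sum. In CD11b+, Cdh1 was at 208 CPM and Cdh17 at 72.3, both lower than in iCD8a. The counts of markers higher in CD11b+ follow the 4-fold rule, by which 13.4% and 13% of all genes were higher in CD11b+. The part of these cells in the values of CD11b+ was not tested.

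Marker lists were also compared between iCD8a and ILC1. By the 4-fold rule ILC1 was the higher library for 9 of the 16 macrophage markers (background 4.89%) and iCD8a for 1, Ly6c2 (background 3.52%). The ratio of iCD8a to ILC1 was above 1 for 3 of them and below 1 for 13. Their log2 ratios had a median of −3.62, beside 0.65 for the lysosomal genes. Both dendritic cell lists had medians above 0 in that comparison. Of the 12 dendritic cell markers, 3 passed with iCD8a higher and 1 with ILC1 higher (median 0.78), although their sum was larger in ILC1. Of the 8 plasmacytoid dendritic cell markers, 3 passed with iCD8a higher and 0 with ILC1 higher (median 1.63), and they summed to 399.6 CPM in CD11b+, 468 in ILC1 and 1063 in iCD8a. Neutrophil markers summed to 242 CPM in CD11b+ and under 10 CPM elsewhere, with Ly6g and Elane at 0 in every library. The B cell genes Ms4a1 and Pax5 had 0 counts in iCD8a and ILC1. The other lists, for B and plasma cells, for mast cells, basophils and eosinophils, and for stromal and endothelial cells, summed to 182, 213 and 203 CPM in CD11b+, to 497, 9.52 and 592 CPM in iCD8a and to 295, 5.45 and 330.4 CPM in ILC1. The part of any of these cells in the lysosomal values was not tested.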

How the data were processed

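RNA-seq of 3 sorted populations, with 1 library each, gave raw read counts per Ensembl gene, which the authors deposited without normalization. Per the series' design text they aligned reads with TopHat and counted with HTSeq. CASAVA 1.9 and TopHat2 are listed per the submitters' processing notes, and the build, annotation and strand setting were not given in the sources used here. The 5 rows that name no gene were left out (reads not uniquely aligned were 26.9% of iCD8a, 34.5% of ILC1 and 30.5% of CD11b+).

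Symbols and exon lengths came from GENCODE by Ensembl ID (35449 of 37224 matched). The exons of 10 members overlap another gene, over 0.48% to 17.4% of their bases, where reads may be lost or mixed. TMM factors (edgeR 4.0.16, R 4.3.3) were 1.09, 0.992 and 0.925 for iCD8a, ILC1 and CD11b+. Folds with exact conditional binomial (Clopper-Pearson) intervals were made in Python 3.11.15 (scipy 1.17.1, pandas 2.3.3, numpy 2.4.6) and plots with matplotlib 3.10.9. Log2 ratios had a prior count of 0.5. As reads carry no molecular identifiers they may repeat 1 molecule, and intervals, and the floor of 3 counts at 0, cover counting error only. With 1 library per group no model test had residual degrees of freedom; DESeq2 1.42.0 gave size factors alone. Steps were tested on simulated counts.

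The members and the lists were chosen with earlier results of these data known. All members are named; of the pathway lists, up to 2 genes per direction and comparison with the largest near bound are named (1 such gene is not reported here), and marker lists are given as counts and sums. The text also names the markers at 0 and the sort markers. Alternatives were other scaling factors, removal of mitochondrial or abundant genes, thinning, and other fold, CPM and prior settings.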

Additional observations from a re-analysis of the deposited data

How the results depend on the processing

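With 1 library per population, no setting here tests the spread between animals. No paired analysis was possible because each group has 1 library. Without scaling factors the median log2 ratio of all genes shifted by 0.14 (iCD8a over ILC1), 0.25 (iCD8a over CD11b+) and 0.11 (ILC1 over CD11b+). In the same order the medians of the 41 genes became 0.79, −1.47 and −1.95. Ifi30 was then also higher in iCD8a than in ILC1, and Ctsf, Lamp2 and Gusb were no longer apart between CD11b+ and iCD8a. Lamp2 was the 1 gene whose call changed under upper-quartile factors, thinning and removal of mitochondrial or abundant genes, and 0 calls changed with DESeq2 size factors. With no CPM minimum, which brings in Ctsk, the median for ILC1 over CD11b+ was −2.20. A fold minimum of 2, together with a near bound above 1.5 in place of 2, gave 17 and 3 genes higher in iCD8a and in ILC1 when those were compared, and 23 higher in CD11b+ than in iCD8a; against both other libraries it gave 21 higher in CD11b+, 15 lower in ILC1, 2 higher in iCD8a and 3 lower in iCD8a. A fold minimum of 8 gave 9 higher in CD11b+ than in iCD8a, 13 higher in CD11b+ than in ILC1, 1 with ILC1 above CD11b+, and 1 lowest in CD11b+ against both others. The set's share of gene counts became 0.846%, 0.545% and 2.42% in iCD8a, ILC1 and CD11b+ without mitochondrially encoded genes, and 1.02%, 0.635% and 2.88% without the 50 most abundant genes of each library, since the total is then smaller. Depth limited Ctsk, with 1 count in each of 2 libraries, and Ctsf, with 18 counts in iCD8a. Exon length from GENCODE may differ from that of the transcripts present, which moves comparisons between genes but not those between libraries.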
